A study of Mus musculus with 10 samples.

Results

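The control cortical culture is described here from its mRNA library alone, 1 of the 10 samples of the series. It was chosen as the only mRNA library of the control condition. The cells were cortical neurons in culture, taken from ICR mouse embryos at embryonic day 14, given a control adeno-associated virus (AAV-Control, a kind of virus used to carry genes into neurons) and collected at day 11 in vitro. The series sets such cultures beside ones given AAV-Gata1, which are not described here, and adds small RNA and histone modification profiles, which are not used here. How many embryos were pooled, what the control virus expressed and what share of cells it reached are not given in the sources used here. The library is a single one, so no value below has a replicate error and no difference was tested. Its sequencing depth is unknown.

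Cortical cultures of this age hold neurons that are extending axons and dendrites and forming synapses, and, unless growth of dividing cells is blocked, also astrocytes, which divide in culture. Astrocytes take up glutamate, supply lipids and buffer metals. Microglia are the resident phagocytes of brain tissue, and oligodendrocytes make myelin. Levels are given as FPKM, a fragment count scaled by transcript length and by the total of mapped fragments, so that genes within the library can be set side by side. In a bulk sample, fewer cells of a type and less RNA per cell cannot be told apart.

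The label of the sample is cortical neuron, and markers of neurons were present, but markers of astrocytes stood higher. Of the 21 astrocyte markers, 20 reached 1 FPKM and 13 reached 100 FPKM, with a median of 199.7 FPKM. The 19 pan-neuronal markers that were matched all reached 1 FPKM, 6 of them reached 100 FPKM, and their median was 56.2 FPKM. The other listed neuronal marker, the tubulin gene Tubb3, was not found among the symbols and has no value here. Over all 19438 named genes, 62.5% reached 1 FPKM, 38.3% reached 10 FPKM and 3.94% reached 100 FPKM. The median of the astrocyte list was 3.55 times that of the neuronal list, and 1.62 times with a narrower astrocyte list of 14 genes, drawn up after the values were seen. The library is called the control cortical culture below, and not a neuron transcriptome.

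Protein-coding genes fell into a broad main group and a long low tail. Of 19023 named protein-coding genes, 12044 reached 1 FPKM, 3227 lay above 0 and below 1 FPKM, and 3752 were listed at 0. The fullest bins, from 8 to 16 and from 16 to 32 FPKM, held 2585 and 2631 genes. Below 1 FPKM the bins emptied slowly, from 615 genes between 0.5 and 1 FPKM to 458 between 0.03125 and 0.0625 FPKM, so no gap separated high from low genes. The limit of 1 FPKM crosses this stretch: 457 named genes lay between 1 and 1.5 FPKM and 641 between 0.5 and 1 FPKM. The middle named gene at 1 FPKM or more stood at 14.3 FPKM, and the highest, Apoe, at 303 times that level.

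**Figure D1:**
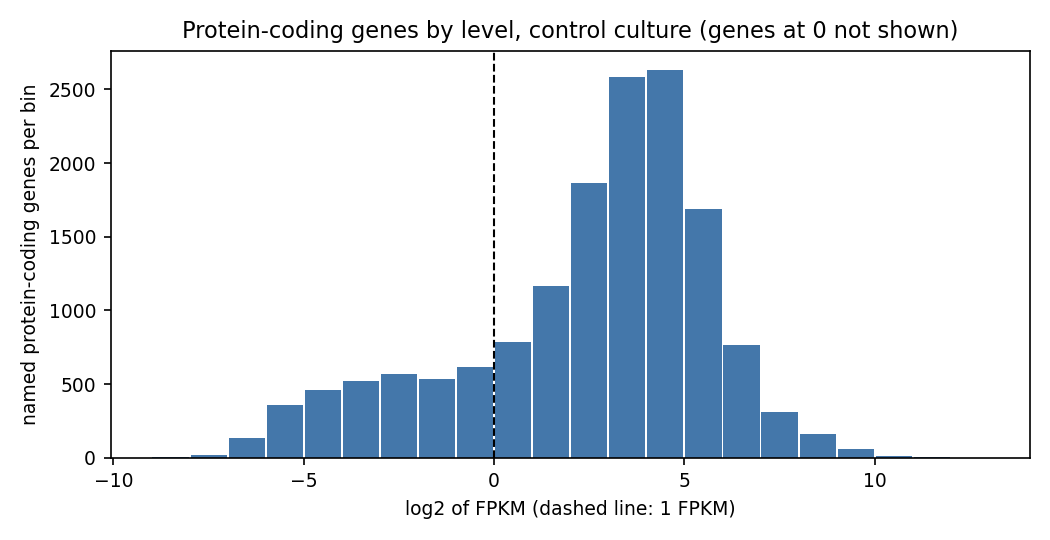
Number of named protein-coding genes (vertical axis) in bins of the log2 of FPKM (horizontal axis) in the control culture, with genes listed at 0 left out. The bars peak between 8 and 32 FPKM and hold at most 615 genes each to the left of the dashed line at 1 FPKM.

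Few genes held much of the summed FPKM, which counts transcripts rather than bases. No mitochondrially encoded gene was found by name among the symbols, so the ranks and shares here and below do not cover such transcripts. The 10 highest named genes held 7.06% of the sum over named genes, the 100 highest 21.3% and the 1000 highest 54.3%. Conversely, 140 genes made up the first 25% of the sum, 778 the first 50%, 2853 the first 75% and 5789 the first 90%. The 99th percentile of named genes at 1 FPKM or more was 413 FPKM. Named genes together gave 94.9% of the sum over all symbols, predicted genes and clones 3.69%, pseudogenes 1.19% and small RNA genes 0.254%.

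Genes of lipid transport, metal binding and secretion led the ranks. Apoe, which encodes the main lipid carrier secreted by astrocytes, was first at 4345 FPKM. The metallothionein gene Mt1, whose product binds zinc and copper, followed at 4213 FPKM, and its relatives Mt2 and Mt3 stood at 2882 and 2704 FPKM, ranks 7 and 8. Between them came Cst3, the gene of the secreted protease inhibitor cystatin C (3514 FPKM), Dbi, whose product binds acyl-CoA esters (3444 FPKM), and the iron storage genes Fth1 and Ftl1 (3247 and 2896 FPKM). The first cytoskeleton gene was Tuba1a, an alpha-tubulin gene abundant in young neurons, at rank 9 with 2635 FPKM. Tubulin genes are near-identical in sequence, so how reads were split among them is uncertain.

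Ranks 10 to 30 mixed translation, cytoskeleton and glial genes. The elongation factor gene Eef1a1 stood at 1936 FPKM, and the ribosomal protein genes Rplp1, Rpl41, Rps29, Rps12 and Rps15 lay between 885 and 1536 FPKM. Tmsb4x, which encodes an actin-binding peptide, stood at 1522 FPKM, with the actin genes Actg1 and Actb at 1091 and 879 FPKM and the actin-severing gene Cfl1 at 953 FPKM. Genes known from astrocytes or progenitors were Vim (1280.4 FPKM) and Gfap (887 FPKM), both of intermediate filaments, Clu (1083 FPKM), which encodes the secreted chaperone clusterin, Pea15a (1156 FPKM) and Prdx6, an antioxidant enzyme gene (1163 FPKM). Psap and Ctsd, genes of lysosomal proteins, stood at 1115 and 990.4 FPKM. Cpe, the carboxypeptidase gene of peptide hormone processing, stood at 1296 FPKM. The rest of the 30 were Ppia, Pla2g7 and Tpt1, at 1105, 1044 and 905 FPKM.

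**Figure D2:**
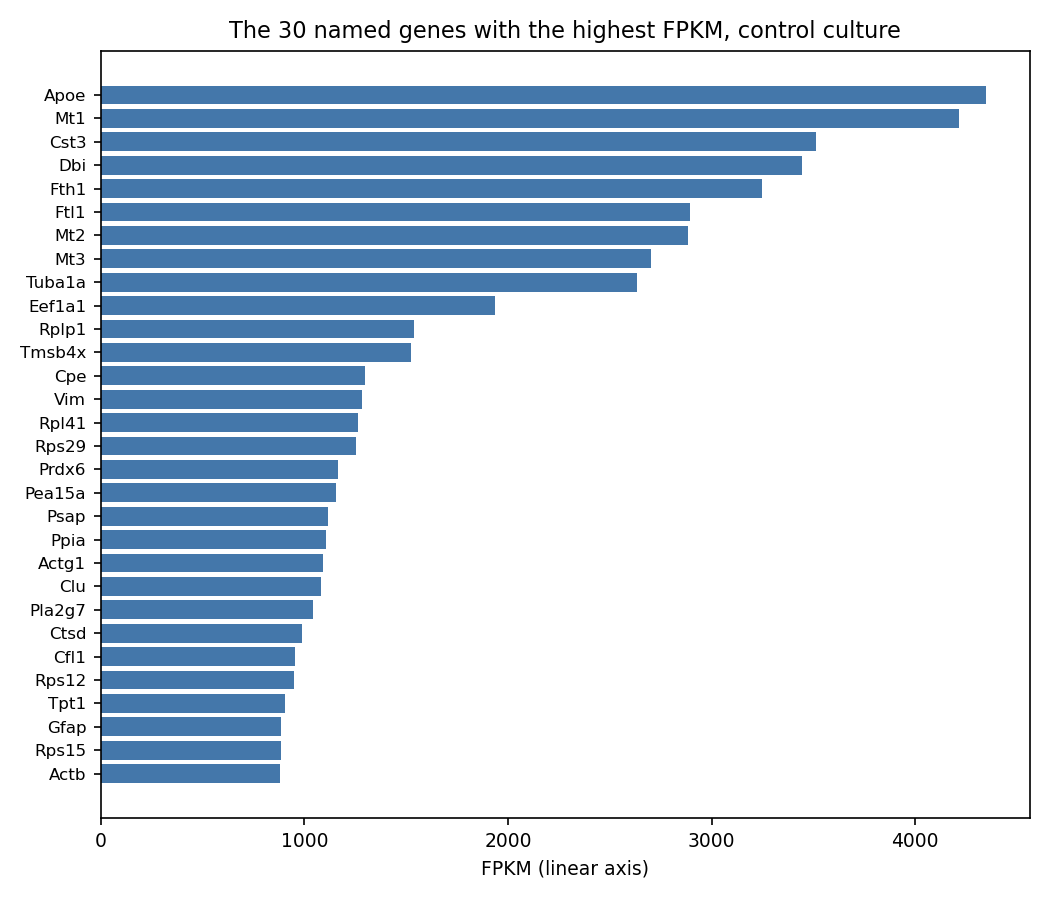
FPKM (horizontal axis, linear, from 0) of the 30 named genes with the highest values in the control culture, 1 bar a gene. The bars fall from 4345 FPKM for Apoe to 879 FPKM for Actb, and 3 of the first 8 are metallothionein genes.

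None of the 19 matched pan-neuronal markers was among the 100 highest named genes, while 6 astrocyte markers were: Apoe, Clu, Gfap, Slc1a3, Fabp7 and Glul. Tubb3 had no value, and Tuba1a (rank 9) is not on the pan-neuronal list, so this count holds for the listed genes only. Ribosomal protein genes filled 32 of these 100 places and nuclear-encoded respiratory chain genes 5. Among the 300 highest named genes there were 4 pan-neuronal and 10 astrocyte markers. Vim was the single progenitor marker in the first 100. The 100 highest held no marker of the microglia, oligodendrocyte, vascular or blood lists.

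The metallothionein genes lie side by side on chromosome 8. Metallothionein genes are known to respond to zinc through short metal response elements, which bind the zinc-sensing factor encoded by Mtf1. The 4 windows below show the 250 bases before the start of each gene, from RefSeq's GRCm38.p6 table, because 3 of these genes rank among the 8 highest while the last, Mt4, was listed at 0. Capitals mark each match to the core of that element, TGCACNC or TGCGCNC, on either strand, with overlaps counted.

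Mt1 (4213 FPKM), chr8:94178839-94179088, plus strand: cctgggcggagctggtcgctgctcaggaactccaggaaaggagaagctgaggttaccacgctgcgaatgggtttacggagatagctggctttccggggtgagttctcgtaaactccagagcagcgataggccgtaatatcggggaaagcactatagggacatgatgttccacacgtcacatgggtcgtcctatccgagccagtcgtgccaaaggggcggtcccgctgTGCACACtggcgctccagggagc
Mt2 (2882 FPKM), chr8:94172368-94172617, plus strand: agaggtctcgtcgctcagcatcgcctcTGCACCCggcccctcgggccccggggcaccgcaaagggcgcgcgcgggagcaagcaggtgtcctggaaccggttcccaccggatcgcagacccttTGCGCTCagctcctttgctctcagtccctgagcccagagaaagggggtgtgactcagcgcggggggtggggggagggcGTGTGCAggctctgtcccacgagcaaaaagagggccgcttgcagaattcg
Mt3 (2704 FPKM), chr8:94152357-94152606, plus strand: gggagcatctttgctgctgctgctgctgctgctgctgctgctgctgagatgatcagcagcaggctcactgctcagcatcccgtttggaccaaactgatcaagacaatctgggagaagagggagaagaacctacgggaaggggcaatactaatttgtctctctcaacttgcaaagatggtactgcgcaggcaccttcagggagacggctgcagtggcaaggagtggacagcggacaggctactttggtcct
Mt4 (listed at 0), chr8:94136954-94137203, plus strand: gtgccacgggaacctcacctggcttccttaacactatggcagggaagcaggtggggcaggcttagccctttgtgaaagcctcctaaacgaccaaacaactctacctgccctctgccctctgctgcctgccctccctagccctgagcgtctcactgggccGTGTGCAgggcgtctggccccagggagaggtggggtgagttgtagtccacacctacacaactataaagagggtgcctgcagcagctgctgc

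The Mt2 window held 3 matches, the Mt1 and Mt4 windows 1 each and the Mt3 window 0. The letters TATAAA, searched over the whole of each window, were in the Mt4 window and in none of the other 3. The same letters are counted over all promoters further below, but there only from 40 to 16 bases before the start. Bases outside these windows were not searched, so the counts do not rank the genes by the elements they have. Nor do they show that a gene lacks TATAAA near the start it uses. Of 12217 named protein-coding genes with a single window, 24.8% held at least 1 match and 1.57% held 3 or more. A match is a string of letters and not a shown binding site. The window hangs on the start given by the table, which need not be the one used in these cells, so no match says only that these letters are not in this window. Among the other genes of metal handling, a list drawn up after values were seen, Mtf1 stood at 6.60 FPKM, the zinc exporter gene Slc30a1 at 11.3 FPKM, the iron exporter gene Slc40a1 at 5.86 FPKM and Hmox1, the gene of heme breakdown, at 149 FPKM. Slc30a3, the zinc transporter gene of synaptic vesicles, stood at 0.672 FPKM.

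Astrocyte genes covered structure, transport and secretion. For structure, Gfap stood at 887 FPKM, 3.70 times the neuronal dendrite gene Map2. For transport, the glutamate uptake gene Slc1a3 (GLAST) stood at 607 FPKM and Slc1a2 (GLT-1), the transporter of more mature astrocytes, at 105 FPKM, a ratio of 5.78. Glul, which turns the glutamate taken up into glutamine, stood at 501 FPKM. The gap junction gene Gja1 stood at 344 FPKM, and its relative Gjb6, which marks more mature astrocytes, at 0.313 FPKM, the lowest of the list. Fabp7, a fatty acid carrier gene of radial glia and young astrocytes, stood at 576 FPKM. Of the remaining named members, Aldoc and Mlc1 stood at 373 and 368 FPKM, the water channel gene Aqp4 at 66.8 FPKM, Slc4a4 at 37.9 FPKM, Aldh1l1 at 21.6 FPKM and S100b at 4.07 FPKM. Several of these genes are also expressed by other cells: Apoe and Clu by microglia or neurons, and Fabp7 by progenitors. The median of the narrower astrocyte list was 91.1 FPKM, and 5 of the 14 stood above the highest pan-neuronal marker.

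Genes of reactive astrocytes were uneven, in a list of 20 drawn up after values were seen. Vim and Gfap lay far above the rest, of which S1pr3 was highest at 55.9 FPKM. H2-D1, a gene of antigen presentation, followed at 45.7 FPKM, the hyaluronan receptor gene Cd44 at 21.1 FPKM and the protease inhibitor gene Serpina3n at 15.99 FPKM. Lcn2, Steap4 and Sphk1, which are known to respond to inflammation or injury, stayed under 1 FPKM (0.812, 0.399 and 0.375 FPKM). The median of the list was 8.17 FPKM, and 17 of 20 reached 1 FPKM (85%, against 62.5% of all named genes). Factors that astrocytes secrete to promote synapses, also listed afterwards, spread from Thbs4 at 0.124 FPKM to Apoe. Sparc and Sparcl1, which encode matrix proteins with opposing effects on synapses, stood at 411 and 346 FPKM, the glypican gene Gpc4 at 56.2 FPKM and the thrombospondin gene Thbs1 at 64.6 FPKM, whereas Thbs2 stood at 0.200 FPKM.

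The pan-neuronal markers spread from 3.18 to 275 FPKM. Uchl1, a ubiquitin hydrolase gene abundant in neurons, stood at 275 FPKM. The tubulin-binding stathmin genes Stmn2 and Stmn3 stood at 252 and 236 FPKM, Map2 at 239.7 FPKM and the growth cone gene Gap43 at 213 FPKM. Of the synaptic genes on this list, the fusion gene Snap25 stood at 116 FPKM, the vesicle gene Syp at 62.7 FPKM, the calcium sensor gene Syt1 at 41.6 FPKM and Syn1 at 34.1 FPKM. Dcx, the doublecortin gene of young migrating neurons, stood at 75.9 FPKM. Among RNA-binding protein genes, Celf4 stood at 59.1 FPKM, Elavl3 at 50.3 FPKM, Rbfox3, which encodes the NeuN antigen, at 18.996 FPKM, Elavl4 at 18.8 FPKM and Rbfox1 at 16.4 FPKM. Nrgn stood at 56.2 FPKM and the enolase gene Eno2 at 40.7 FPKM. The neurofilament genes, which thicken mature axons, closed the list: Nefl stood at 10.9 FPKM, Nefm at 3.18 FPKM and, outside the list, Nefh at 0.360 FPKM. No pan-neuronal marker stood above the highest astrocyte marker, 5 of 19 stood above the astrocyte median, and 10 of 21 astrocyte markers stood above the highest pan-neuronal marker.

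**Figure D3:**
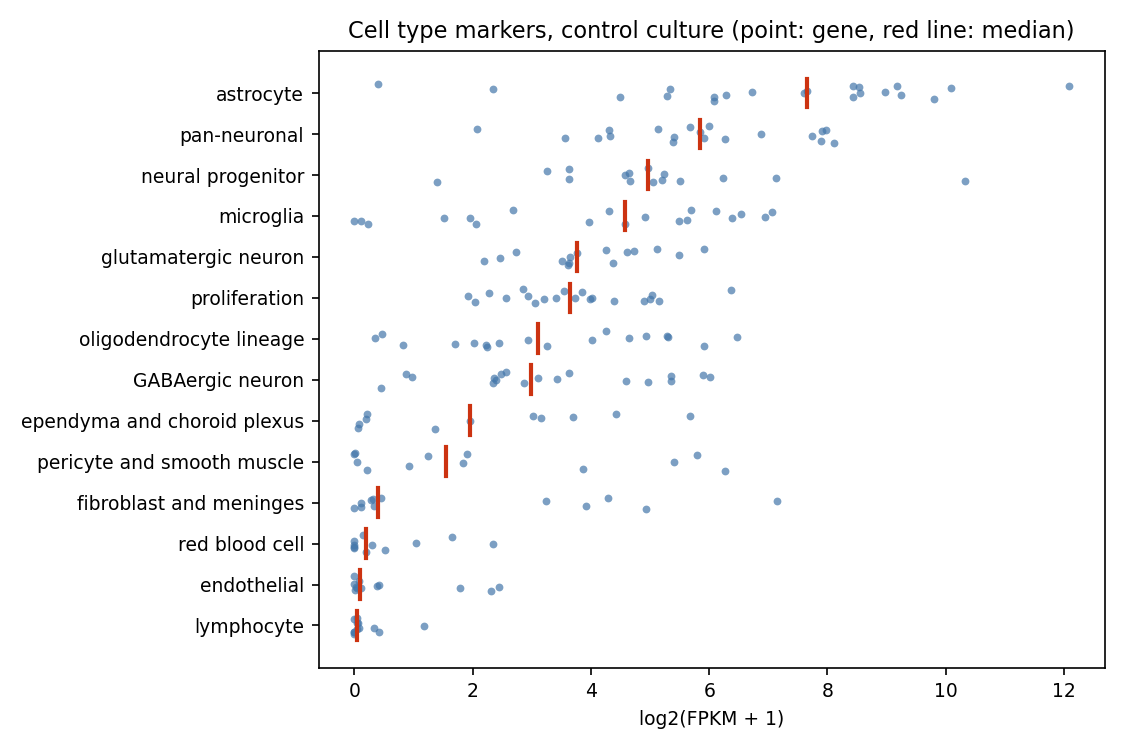
log2(FPKM + 1) of each marker (points) in 14 cell type lists (rows), with the median of each list as a red line, in the control culture. Astrocyte markers have the highest median and pan-neuronal markers the next, and the medians of the red blood cell, endothelial and lymphocyte lists lie near 0.

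Progenitor markers and genes of dividing cells were both present. All 15 progenitor markers reached 1 FPKM, with a median of 30.1 FPKM. The stem cell factor gene Sox2, which astrocytes also express, stood at 139 FPKM, Hopx at 74.5 FPKM, Pax6, a factor gene of radial glia, at 44.2 FPKM and the intermediate filament gene Nes at 24.0 FPKM. Genes of neuron production were lower, with the intermediate progenitor factor gene Eomes at 8.57 FPKM and the neurogenic factor gene Neurog2 at 1.64 FPKM, while Insm1 stood at 24.2 FPKM. The receptor gene Notch1 stood at 22.8 FPKM and its target genes Hes5 and Hes1 at 11.3 and 11.3 FPKM. Prom1, Tnc and Sox1 stood at 36.9, 36.0 and 30.1 FPKM. All 20 proliferation genes reached 1 FPKM and 11 reached 10 FPKM. The replication clamp gene Pcna was highest at 82.0 FPKM, followed by Rrm2 (34.6 FPKM), Top2a (31.6 FPKM) and the mitotic kinase gene Cdk1 (30.9 FPKM). Mki67, which encodes the Ki-67 antigen, stood at 8.23 FPKM and the kinetochore motor gene Cenpe at 2.81 FPKM. Which cells carried these transcripts cannot be read from a bulk sample.

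Microglia genes were present with an uneven pattern. Of 19 markers 16 reached 1 FPKM (84.2%, against 62.5% of all named genes), with a median of 22.8 FPKM. The signalling adaptor gene Tyrobp stood at 132 FPKM and its partner receptor gene Trem2 at 43.7 FPKM, the complement genes C1qa, C1qb and C1qc at 92.3, 50.5 and 82.5 FPKM, the lysozyme gene Lyz2 at 68.2 FPKM and Cx3cr1, the fractalkine receptor gene, at 14.6 FPKM. The growth factor receptor gene Csf1r stood at 5.42 FPKM, the phagocyte genes Cd68, Laptm5 and Ctss at 48.1, 29.2 and 22.8 FPKM, Fcrls at 18.8 FPKM, and Itgam, Aif1 and Ptprc at 3.14, 2.89 and 1.87 FPKM. Defining genes of resting microglia in tissue were at or near 0: P2ry12 stood at 0.178 FPKM, Tmem119 at 0.0738 FPKM, and Siglech was listed at 0. In lists drawn up after these values were seen, 12 homeostatic genes had a median of 2.32 FPKM and 16 disease-associated genes one of 95.7 FPKM. Among the latter the secreted protein gene Spp1 (osteopontin) stood at 844 FPKM, Gpnmb at 115 FPKM, the lipase gene Lpl at 75.9 FPKM, Axl at 35.5 FPKM, Itgax at 5.93 FPKM and Cst7 at 0.0961 FPKM. Other cells of the culture can express most of this second list, among them Ctsd, Ctsb, Cd63, Cd9 and Fabp5.

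The oligodendrocyte lineage was represented mainly by its early and intermediate genes. Of 18 markers 15 reached 1 FPKM (83.3%, against 62.5% of all named genes), with a median of 7.61 FPKM. The lineage factor genes Olig1, Olig2 and Sox10 stood at 87.9, 38.3 and 8.54 FPKM, and the precursor receptor genes Pdgfra and Cspg4 at 24.1 and 3.67 FPKM. Genes of differentiating cells, Bcas1, Gpr17 and Enpp6, stood at 17.998, 15.2 and 2.23 FPKM. Of the myelin genes, Cnp stood at 59.4 FPKM and Mbp at 37.8 FPKM, but the genes of mature myelin Mog, Mobp and Mal were the 3 lowest, at 0.762, 0.382 and 0.278 FPKM. Between them lay Cldn11 (6.68 FPKM), Ugt8a (4.45 FPKM), Mag (3.75 FPKM) and the myelin regulator gene Myrf (3.07 FPKM).

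Endothelial, red cell and lymphocyte markers were mostly under 1 FPKM, while pericyte and fibroblast lists were mixed. Of 12 endothelial markers 3 reached 1 FPKM, namely Egfl7 (4.46 FPKM), Slco1a4 (3.98 FPKM) and the VEGF receptor gene Kdr (2.44 FPKM), whereas the junction genes Cdh5 and Cldn5 stood at 0.00861 FPKM and 0. In the pericyte and smooth muscle list 7 of 12 genes reached 1 FPKM (58.3%, against 62.5% of all named genes). The contractile genes Acta2, Myl9 and Tagln stood at 76.4, 54.2 and 41.5 FPKM and the receptor gene Pdgfrb at 13.6 FPKM, but Rgs5 and Des at 0.888 and 0.0253 FPKM, and Kcnj8 was listed at 0. Of 12 fibroblast and meninges genes 5 reached 1 FPKM (41.7%, against the same 62.5%). They were Igfbp2, also known from glia (141 FPKM), the prostaglandin synthesis gene Ptgds (29.6 FPKM), Pdgfrl (18.5 FPKM), the fibronectin gene Fn1 (14.04 FPKM) and the decorin gene Dcn (8.43 FPKM). The fibrillar collagen genes Col1a1, Col1a2 and Col3a1 stood at 0.254, 0.0830 and 0.0814 FPKM. Of 11 red cell genes 3 reached 1 FPKM, all of them globin genes: embryonic Hbb-y and Hba-x stood at 4.07 and 1.05 FPKM and Hba-a1 at 2.16 FPKM. Hba-a1 and Hba-a2 are near-identical, and Hba-a2 was listed at 0, so their split is uncertain. Among 12 lymphocyte markers only Lck reached 1 FPKM (1.26 FPKM). The ependymal and choroid plexus list was led by Foxj1, the factor gene of motile cilia (50.1 FPKM), and Ttr (20.4 FPKM), while Kl and Clic6 stood at 0.0468 and 0.0514 FPKM.

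The regional identity was that of the forebrain. Of 10 forebrain genes 9 reached 1 FPKM, with a median of 19.1 FPKM, with Nr2f1 at 78.8 FPKM and Lhx2 at 75.9 FPKM. The cortical factor genes Emx1 and Emx2 stood at 19.6 and 18.6 FPKM. Of 19 genes of the thalamus, midbrain and hindbrain 3 reached 1 FPKM, namely Tcf7l2 (9.68 FPKM), Nr4a2 (9.04 FPKM) and Lmx1a (4.34 FPKM), and the first 2 are also known in cortical cells. The midbrain genes En1, Foxa2 and Pitx3 stood at 0.0451, 0 and 0 FPKM. None of 39 Hox genes, which pattern the hindbrain and spinal cord, reached 1 FPKM, and 37 were listed at 0. Genes of monoamine and acetylcholine neurons were also low: 1 of 13 reached 1 FPKM, Hdc at 4.94 FPKM, the histamine synthesis gene that mast cells also express, while Th and Tph2 stood at 0.295 and 0.0611 FPKM and Chat was listed at 0. In the striatal list 9 of 13 genes reached 1 FPKM (69.2%), a share near the 62.5% of all named genes. Its leading gene Meis2 (97.7 FPKM) is not restricted to striatum. Its defining members Ppp1r1b, Drd1a, Drd2 and Adora2a stood at 7.14, 1.11, 1.05 and 0.242 FPKM.

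Glutamatergic markers all reached 1 FPKM (15 of 15), with a median of 12.6 FPKM, and GABAergic markers did so in 15 of 18 cases, with a median of 6.94 FPKM. Summed over members the order was the other way, with 295 FPKM for the glutamatergic and 314 FPKM for the GABAergic list. Neurod6, a factor gene of cortical projection neurons, stood at 59.3 FPKM, and the vesicular glutamate transporter gene Slc17a7 (VGLUT1) at 33.9 FPKM, 7.51 times its relative Slc17a6 (VGLUT2) at 4.51 FPKM. The related factor genes Neurod2 and Neurod1 stood at 11.6 and 3.58 FPKM, and Sv2b and Nrn1 at 11.3 and 10.4 FPKM. On the GABAergic side the peptide gene Sst stood at 63.3 FPKM, the homeobox gene Dlx1 at 58.7 FPKM and the synthesis gene Gad1 at 39.8 FPKM, 9.73 times Gad2 at 4.09 FPKM. The vesicular GABA transporter gene Slc32a1 stood at 4.58 FPKM. Other factor genes of interneurons were Nr2f2 (11.3 FPKM), Dlx2 (9.73 FPKM), Dlx5 (7.61 FPKM), Maf (6.26 FPKM) and Dlx6 (4.27 FPKM). The calcium-binding protein gene Calb2 stood at 23.0 FPKM, Adarb2 at 4.91 FPKM and the peptide gene Npy at 4.12 FPKM. Interneuron genes that appear late in development were lowest: Vip stood at 0.359 FPKM and Pvalb at 0.841 FPKM. Lhx6, a factor gene of Sst and Pvalb interneurons, stood at 0.968 FPKM.

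Markers of both deep and upper cortical layers were present, with a wide spread within each list. The 12 deep layer genes had a median of 11.1 FPKM and the 10 upper layer genes one of 9.35 FPKM. In the deep list Pcp4 stood at 85.2 FPKM, the subcerebral factor gene Fezf2 at 25.4 FPKM, Tle4 at 20.4 FPKM, Tbr1 at 18.02 FPKM, Bcl11b (CTIP2) at 5.63 FPKM and Foxp2 at 0.938 FPKM. In the upper list Lhx2 and Pou3f3 stood at 75.9 and 50.3 FPKM and Cux1 at 44.2 FPKM. Far lower were Cux2 at 3.15 FPKM, Rorb at 3.11 FPKM and Inhba at 0.702 FPKM. Lhx2 and Pou3f3 are also expressed in progenitors or glia. All 7 genes of the Cajal-Retzius list, the early neurons of the cortical surface, reached 1 FPKM. The chemokine receptor gene Cxcr4 was highest at 56.3 FPKM, Reln, which interneurons also express, stood at 40.1 FPKM, and the more selective Trp73 at 3.21 FPKM.

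All 26 genes of synaptic vesicles and release reached 1 FPKM, with a median of 34.4 FPKM. The vesicle SNARE gene Vamp2 led at 258 FPKM, 57.2 times Vamp1 at 4.51 FPKM. Other members were Syt11 (188 FPKM), Rab3a (99.2 FPKM) and Syt4 (56.8 FPKM), while the active zone gene Pclo stood at 5.01 FPKM and Sv2c at 3.02 FPKM. All 17 postsynaptic scaffold genes also reached 1 FPKM, from Dlgap2 at 1.61 FPKM to Dlgap4 at 67.7 FPKM, with Dlg4 (PSD-95) at 65.9 FPKM, Shank3 at 12.2 FPKM, and Gphn, the scaffold gene of inhibitory synapses, at 25.8 FPKM.

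Receptor subunits showed a profile in which some relatives differed widely. Gria2, the AMPA receptor subunit gene that limits calcium entry, stood at 51.5 FPKM and Gria1 at 29.4 FPKM. The NMDA receptor subunit gene Grin2b, which dominates in early life, stood at 12.6 FPKM, and Grin2a, which is known to take over in the maturing cortex, at 0.578 FPKM, a ratio of 21.8. Grin1, the obligatory subunit gene, stood at 19.9 FPKM, and Grin3a at 3.68 FPKM. Grm5 led the metabotropic receptor genes at 14.5 FPKM, followed by Grm7 at 5.63 FPKM. Of 19 GABA-A receptor genes 12 reached 1 FPKM (63.2%, against 62.5% of all named genes). Gabra2, an alpha subunit gene of early development, stood at 26.3 FPKM, Gabrb1 at 28.6 FPKM, and the cerebellar gene Gabra6 was listed at 0.

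Other pairs of related genes were also set side by side per length. The chloride importer gene Slc12a2 (NKCC1) stood at 24.5 FPKM and the neuronal exporter gene Slc12a5 (KCC2) at 12.7 FPKM, a ratio of 1.93, although Slc12a2 is also expressed by glia. The sodium channel genes Scn2a1 and Scn1a stood at 12.4 and 1.53 FPKM and the kinase genes Camk2b and Camk2a at 75.5 and 23.4 FPKM. Eno1, the widely expressed enolase gene, stood at 218 FPKM, 5.35 times the neuronal Eno2. The lactate dehydrogenase genes Ldhb and Ldha stood at 353 and 189 FPKM. Ratios between these genes carry no replicate error.

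**Figure D4:**
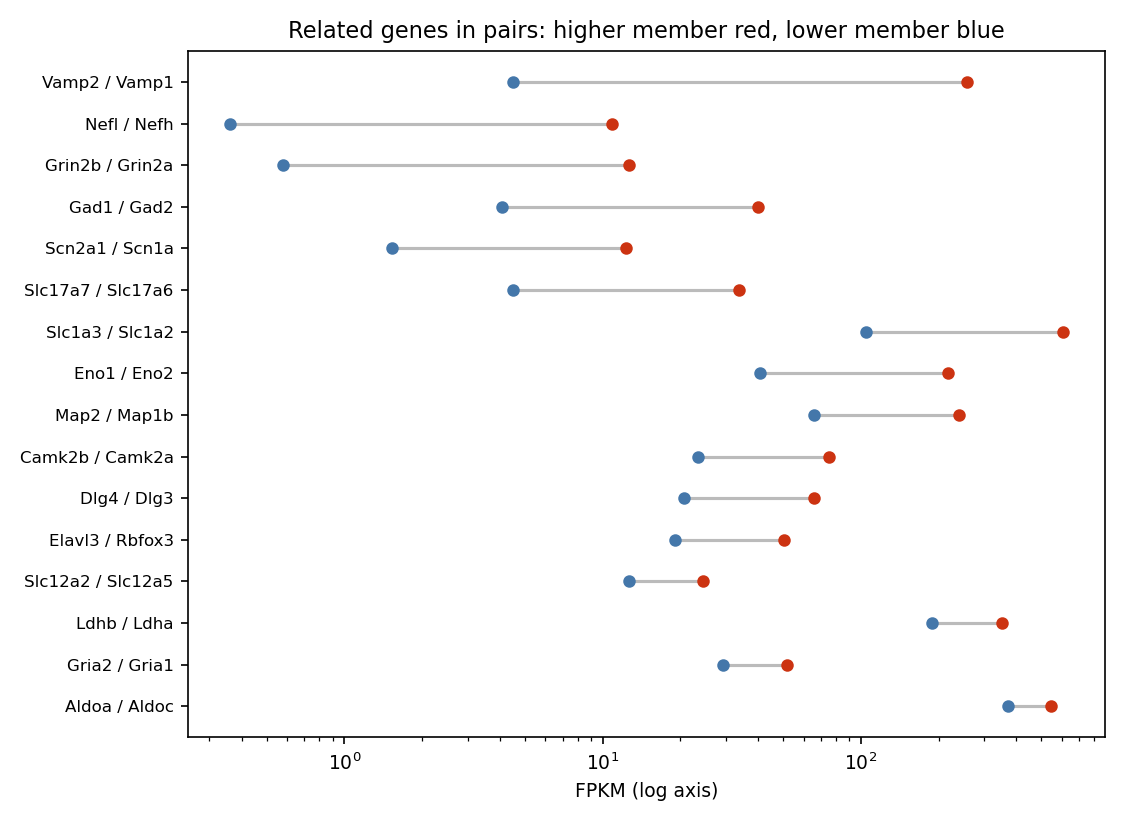
FPKM (horizontal log axis) of the higher (red) and lower (blue) member of 16 pairs of related genes in the control culture, ordered by their ratio. The pairs run from Vamp2 and Vamp1, 57.2-fold apart, to Aldoa and Aldoc, 1.47-fold apart.

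Activity, peptide and growth factor genes spread widely. Of 21 genes induced by neuronal activity 19 reached 1 FPKM (90.5%, against 62.5% of all named genes). Jun was highest at 44.8 FPKM, Fos stood at 16.1 FPKM and Egr1 at 13.1 FPKM, and Fosb and Egr4 were lowest at 0.845 and 0.595 FPKM. The neurotrophin gene Bdnf stood at 1.59 FPKM and its receptor gene Ntrk2 at 431 FPKM, 272 times as high. Ntrk2 is known to be made by astrocytes in a shortened form as well, and gene level values do not tell the forms apart. Cntf, a growth factor gene of astrocytes, stood at 52.0 FPKM. Of 29 neuropeptide genes 16 reached 1 FPKM (55.2%, against 62.5% of all named genes). The granin and secretory granule genes Scg3, Scg5, Scg2 and Chgb stood at 108, 73.4, 41.1 and 37.6 FPKM and the peptide gene Cck at 21.3 FPKM, while the hypothalamic peptide genes Oxt, Avp, Hcrt and Agrp were listed at 0.

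Housekeeping groups were high throughout. Of 84 cytosolic ribosomal protein genes 79 reached 1 FPKM, with a median of 385 FPKM, and together they held 7.47% of the summed FPKM. The 5 below 1 FPKM were Rpl3l, Rpl39l, Rpl10l, Rps12l1 and Rps12l2, which by name are relatives or copies of the main genes. The 75 nuclear-encoded respiratory chain genes all reached 10 FPKM, with a median of 156.7 FPKM and 3.12% of the sum, from Ndufa11 (21.2 FPKM) to Cox6b1 (569.5 FPKM). All 31 proteasome genes also reached 10 FPKM, from Psmd11 at 41.1 FPKM to Psmb6 at 188 FPKM. No gene of these last 2 lists, of glycolysis or of the common reference list was at 0. Glycolysis genes had a median of 188.8 FPKM, led by Gapdh (634 FPKM), and Hk2 was the lowest at 1.502 FPKM. Commonly used reference genes were far from equal, with Tbp at 19.7 FPKM against Ppia at 1105 FPKM and Eef1a1 at 1936 FPKM. Reads of ribosomal protein genes can be shared with their many pseudogenes, of which Rps2-ps13 and Rpl34-ps1 were listed at 261 and 234 FPKM, so single values of this group are uncertain.

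Transcripts from both sex chromosomes were present. Xist, the noncoding gene of X inactivation in female cells, stood at 85.4 FPKM, and the Y-linked genes Eif2s3y, Ddx3y, Kdm5d and Uty at 36.9, 13.4, 10.1 and 6.55 FPKM. Xist is known to be made by female cells and Y-linked genes by male cells, and cultures are often pooled from several embryos. Usp9y, Zfy1 and Zfy2 were listed at 0. Other long noncoding RNAs were led by Gas5 (344 FPKM), a host gene of small nucleolar RNAs. The imprinted genes Rian and Meg3 stood at 264 and 127 FPKM, Malat1 at 199.8 FPKM and Neat1 at 57.8 FPKM. Dlx6os1 had 2 rows, and its higher row, 21.5 FPKM, was used.

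Receptor families of smell and taste and the antibody genes were near silent. Of 1248 olfactory receptor genes 1 reached 1 FPKM, Olfr287 at 2.14 FPKM, and 1209 were listed at 0. None of 329 vomeronasal receptor genes reached 1 FPKM, nor did any of 35 bitter taste receptor genes, and all 230 antibody segments were listed at 0. In other families the members at 1 FPKM or more, against 62.5% of all named genes, were 330 of 370 Zfp zinc finger genes, 79 of 81 mitochondrial ribosomal protein genes, 35 of 40 kinesin genes and 31 of 36 protocadherin genes. Shares near that of all named genes were found for 59 of 99 potassium channel genes (59.6%), 203 of 347 solute carrier genes (58.5%) and 13 of 22 cadherin genes (59.1%). Kif1a and Kif1b, motors of axonal transport, stood at 124 and 119 FPKM. Pcdhga12, at 184 FPKM, belongs to a cluster whose members share exons, so this row may hold reads of several of them. Clustered histone genes, whose transcripts mostly lack the poly(A) tail that the library selected for, reached 1 FPKM in 11 of 70 cases.

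Promoter composition went with the level of the gene. The windows of RefSeq's GRCm38.p6 table, from 250 bases before to 50 after the start, were used for the 12217 named protein-coding genes with a single window. The CpG ratio sets the number of CG steps against the number that the C and G content of the window would give, and CpG islands are commonly called from 0.6. The ratio reached 0.6 in 4.22% of the 2870 promoters of genes listed at 0, in 23.1% of those above 0 and below 1 FPKM, in 67.6% of those from 1 to 10 FPKM, in 83.5% of those from 10 to 100 FPKM and in 83.6% of the 475 at 100 FPKM or more. The share was thus higher in each of the first 4 groups than in the one before, and level between the last 2. The box TATAAA, searched from 40 to 16 bases before the start, went the other way over the low levels. It was found in 6.93% of promoters of genes at 0, in 4.40% below 1 FPKM, in 1.42% from 1 to 10 FPKM, in 0.790% from 10 to 100 FPKM and in 2.32% at 100 FPKM or more. On the opposite strand it was found in 0.688% of all windows, against 3.03% on the strand of the gene. The most abundant genes with the box were Vim, Ppia and Ckb (1280.4, 1105 and 856 FPKM). These shares describe genes, which are not independent replicates.

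**Figure D5:**
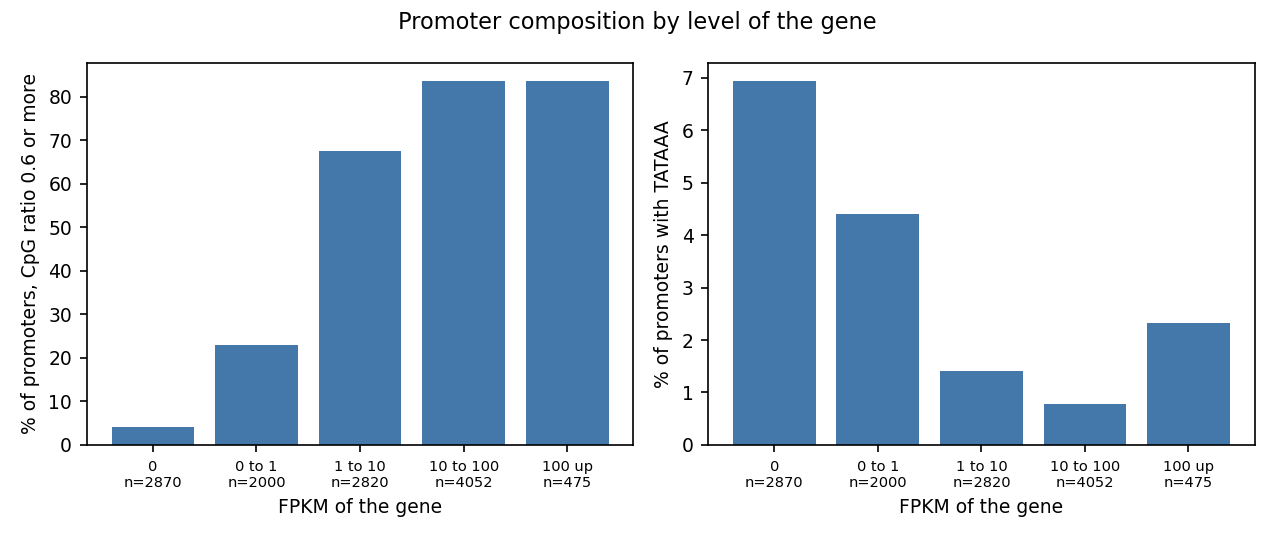
Left, percent of promoters with a CpG ratio of 0.6 or more, and right, percent with TATAAA from 40 to 16 bases before the start (both axes from 0), by FPKM of the gene in the control culture, with the number of genes under each bar. The left bars climb from 4.22% to about 83.5%, and the right bars fall from 6.93% to 0.790% before the last bar at 2.32%.

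Over all 12217 promoters 51.3% reached a CpG ratio of 0.6, with a median of 0.615. Only 12 of the 21 astrocyte and 13 of the 19 microglia markers had a single window. Of these astrocyte promoters 1 reached a CpG ratio of 0.6 (Id3, at 0.704), with a median of 0.226, although 8 of the 12 genes stood above 100 FPKM. No microglia promoter reached it (median 0.240). Of 9 pan-neuronal promoters 6 reached it (median 0.696), and so did 84.5% of 58 respiratory chain promoters. The windows below are the 250 bases before the start of the highest gene with a single window in each list, and capitals mark the CG steps.

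Gfap (astrocyte, 887 FPKM), chr11:102897201-102897450, minus strand: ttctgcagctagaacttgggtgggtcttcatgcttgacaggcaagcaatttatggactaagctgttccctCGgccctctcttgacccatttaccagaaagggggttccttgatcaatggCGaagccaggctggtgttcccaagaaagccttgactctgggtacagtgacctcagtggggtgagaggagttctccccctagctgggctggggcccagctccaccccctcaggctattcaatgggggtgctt
C1qc (microglia, 82.5 FPKM), chr4:136892915-136893164, minus strand: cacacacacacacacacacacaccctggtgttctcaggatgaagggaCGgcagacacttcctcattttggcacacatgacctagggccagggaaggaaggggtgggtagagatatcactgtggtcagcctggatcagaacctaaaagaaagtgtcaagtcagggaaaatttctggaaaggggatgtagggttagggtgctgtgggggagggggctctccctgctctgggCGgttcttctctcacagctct
Uchl1 (pan-neuronal, 275 FPKM), chr5:66675871-66676120, plus strand: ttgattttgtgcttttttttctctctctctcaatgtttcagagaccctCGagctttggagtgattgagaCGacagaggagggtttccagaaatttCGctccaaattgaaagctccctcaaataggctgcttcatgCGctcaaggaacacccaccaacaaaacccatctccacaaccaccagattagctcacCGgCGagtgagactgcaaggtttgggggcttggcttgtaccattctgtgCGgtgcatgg
Cox6b1 (respiratory chain, 569.5 FPKM), chr7:30626115-30626364, minus strand: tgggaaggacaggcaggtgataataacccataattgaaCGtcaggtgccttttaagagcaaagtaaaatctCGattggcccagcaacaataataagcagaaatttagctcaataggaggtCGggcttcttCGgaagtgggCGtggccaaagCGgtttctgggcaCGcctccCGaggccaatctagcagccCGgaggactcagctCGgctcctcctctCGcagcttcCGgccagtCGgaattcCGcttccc

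The Gfap and C1qc windows held 2 CG steps each, the Uchl1 window 7 and the Cox6b1 window 14. The CpG ratio was 0.129 for Gfap, 0.144 for C1qc, 0.470 for Uchl1 and 0.807 for Cox6b1. Uchl1 thus lay below 0.6 and below the median of the pan-neuronal promoters (0.696), most of which reached 0.6. Gfap stood above Cox6b1 in level (887 against 569.5 FPKM), with fewer CG steps in its window.

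Transcripts of translation genes are known to begin with a tract of C and T bases, through which their translation is controlled together. Within 15 bases on either side of the annotated start, a run of 8 or more C or T was found in 21 of 51 ribosomal protein genes (41.2%), against 11.5% of all promoters. The 30 bases around the start are shown for Eef1a1, picked by name, and for 4 ribosomal protein genes with such a run. Capitals mark the longest run of C or T anywhere in the 30 bases, which need not be the tract that opens the transcript. The 4 ribosomal protein genes had the highest FPKM of those with such a run, once the genes of a single chromosome were left out of the choice. A higher gene on that chromosome would not be shown.

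Eef1a1 (1936 FPKM), chr9:78481710-78481739, minus strand: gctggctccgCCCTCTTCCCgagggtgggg
Rps26 (826 FPKM), chr10:128626492-128626521, minus strand: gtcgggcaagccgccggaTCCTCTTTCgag
Rpl38 (720.2 FPKM), chr11:114668565-114668594, plus strand: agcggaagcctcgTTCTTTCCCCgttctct
Rps9 (695 FPKM), chr7:3704026-3704055, plus strand: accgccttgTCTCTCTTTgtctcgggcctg
Rpl28 (485 FPKM), chr7:4792950-4792979, plus strand: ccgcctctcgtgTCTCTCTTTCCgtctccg

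The runs in these windows were 10, 9, 10, 9 and 11 bases long. The start given by the table need not be the one used in these cells, and 30 of the 51 genes had no such run in their window.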

How the data were processed

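The 1 control library was made from poly(A) RNA by a strand-keeping method (TruSeq) and read from both ends, per the labels' protocols. The deposited values are FPKM, per the file headers. The submitters' processing notes name, without their roles, the aligner TopHat2 (2.1.1), Cufflinks with its Cuffdiff program (both 2.1.1) and the builds mm9 and mm10. The annotation and the use of strand are not given in the sources used here. Of 40993 rows, 6 without a symbol (0.0122% of the summed FPKM) and 27 whose symbol had become a date (0.257%, among them genes of the septin and March families) were left out, and the highest row was kept for 62 repeated symbols, which left 40879. RefSeq names gave a gene type for 77.9% of these and for 99.3% of the 19438 named genes, which leave out predicted genes, clones, pseudogenes, small RNA genes and antigen receptor segments. No steps of whole fragments were found in the values, of which 63 lay above 0 and under 1e-06 FPKM, so the depth is unknown.

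Lists were summarised by counts and medians, and differences of medians on log2(FPKM + 1), with a pseudocount of 1, served for the alternatives. No test was made. The members and lists were chosen with earlier results of these data known, and lists said to be drawn up afterwards came after these values. The genes named are the 30 highest, members of the lists (of long lists the 8 highest and 4 lowest, or some of them), the pairs, and the highest of each family; others are named where a count or a window turns on them. Python 3.11.15, pandas 2.3.3, numpy 2.4.6 and matplotlib 3.10.9 were used, and the functions were tested on simulated data. The values of some genes of these lists are not reported here, though the counts and medians include them.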

Additional observations from a re-analysis of the deposited data

How the results depend on the processing

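With 1 library, no replicate could be left out, and no alternative says how the values would vary between cultures. No paired analysis was possible because the control condition has 1 mRNA library and the result comes from no test. The number of named genes at 1 FPKM or more was 12144, and 12785 at a minimum of 0.5 FPKM, 12145 with the rows of a symbol summed and 13728 over all symbols. The number of genes to 50% of the sum was 778, with 779, 855 and 902 under the alternatives, and the share of the 10 highest genes, 7.06%, was 6.70% over all symbols and 7.66% without ribosomal protein genes. The difference of list medians in log2(FPKM + 1), neurons minus astrocytes, was −1.81, and −1.83 with a pseudocount of 0.1, −2.20 with only members at 1 FPKM or more, −1.40 with means, and −0.67 with the narrower astrocyte list, which was chosen after the data were seen. Leaving out genes of several cell type lists changed nothing, since none was in 2 of them. Neurons minus microglia was 1.27, and 1.30, 0.64 and 1.81 under the first 3 of these alternatives. Neurons minus the oligodendrocyte lineage was 2.74, and 2.88, 1.82 and 2.52, and glutamatergic minus GABAergic was 0.78, and 0.86, 0.34 and 0.69. No direction reversed in these alternatives, but the sums of the last pair of lists had the other order. The cause of these shifts was not tested.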

Other observations

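Genes of lipid synthesis, antioxidant defence and lysosomes, in lists drawn up after the values were seen, were also high. Of 16 genes of sterol and fatty acid synthesis 15 reached 1 FPKM, and the desaturase genes Scd2 and Fads2 stood at 636 and 467 FPKM. All 19 antioxidant genes reached 1 FPKM, with a median of 131.7 FPKM. The glutathione transferase gene Gstm1 stood at 792 FPKM, Prdx1 at 559 FPKM and Sod1 at 387 FPKM, but Nqo1, a well known target of the factor encoded by Nfe2l2, at 3.58 FPKM. The 18 lysosomal genes had a median of 116 FPKM, from Gla at 7.76 FPKM to Psap. Cyp46a1, the neuronal cholesterol hydroxylase gene, was the highest of 115 cytochrome P450 genes at 44.3 FPKM, and 75 of them were listed at 0.

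Of 12 interferon response genes 7 reached 1 FPKM (58.3%, against 62.5% of all named genes), with Ifi27 at 19.1 FPKM and Isg15 at 1.89 FPKM, while Mx1 stood at 0.124 FPKM and Ccl5 was listed at 0. Of 36 interleukin genes 3 reached 1 FPKM (8.33%, against the same 62.5%), namely Il17d, Il18 and Il34, at 14.8, 14.5 and 1.29 FPKM. Of 40 chemokine genes 13 did (32.5%), and Ccl27a stood at 32.7 FPKM and Cx3cl1, the neuronal ligand of the microglial receptor, at 28.7 FPKM.

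Some rows that are not named genes ranked high, and single values there are hard to read. The predicted gene Gm26330 stood at rank 10 of all symbols with 1961 FPKM, Gm20721 at 729 FPKM, and the microRNA gene Mir3473e at 482 FPKM, although 1056 of 1066 microRNA genes were listed at 0.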
